A study of Homo sapiens with 4 samples.

Results

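The miR-17/92 cluster is a group of 6 miRNA hairpins that are transcribed together on human chromosome 13. Its members were taken by name: 10 mature products of these hairpins, out of 1644 miRNA names with counts, of which 1610 belong to no transfected plasmid and are called untransfected below. Small RNA was sequenced from HCT116 cells, an established line of human colon carcinoma cells, after transfection of plasmids that carry primary miRNAs (pri-miRNAs), in 4 libraries, 1 for each condition. The empty vector library came from cells given pcDNA3 without an insert. The wild type library came from cells given wild-type pri-miRNAs (pri-mir-30a, pri-mir-142, pri-mir-30d, pri-mir-576, pri-mir-885, pri-mir-128-1, pri-mir-342 and pri-mir-200b) with pri-mir-16-1. The mutant 1 library came from a mixture of variants of the same pri-miRNAs, again with pri-mir-16-1, in which base pairs of the hairpin stems were changed (pri-mir-30a seedW_56, pri-mir-142 seedW_67, pri-mir-30d seedM_6, pri-mir-576 seedM_6, pri-mir-885 midM_1011, pri-mir-128-1 midM_none, pri-mir-342 midM_none and pri-mir-200b midW_none, where M stands for mismatches and W for wobble pairs). The mutant 2 mixture held the midM_910 variant of pri-mir-342, pri-mir-16-1 and empty vector. The 2 mutant labels were tied to these mixtures by the order in which the study lists them. No plasmid in the deposited sequences, which cover 12 pri-miRNAs, carries a hairpin of the cluster, so its products came from the cells' own genes in every library. With 1 library per condition there is no replicate and no test: all intervals below are at 95%, cover counting error only, and say nothing of the spread between transfections.

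In the nucleus DROSHA with its partner DGCR8 cuts each hairpin out of the long transcript, and in the cytoplasm DICER removes the loop, leaving a pair of arms called 5p and 3p. One arm, the guide, is usually kept by an Argonaute protein and the other, the passenger, is mostly lost. The cluster is a well known target of the transcription factor MYC, is raised in many tumours including those of the colon, and is also called oncomiR-1. Targets of a guide are chosen mainly by its seed, the bases at positions 2 to 8.

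The mature sequences are shown by seed, since the seeds sort the guides of the cluster into 4 families and since the shared or nearly shared sequences decide below which counts can be placed on this locus. They are RefSeq entries on GRCh38.p14, plus strand of chromosome 13, with the seed in capitals. The first family is that of miR-17, which represses the cell cycle inhibitor CDKN1A.
hsa-miR-17-5p (chr13:91350618-91350640): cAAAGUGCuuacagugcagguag
hsa-miR-20a-5p (chr13:91351072-91351094): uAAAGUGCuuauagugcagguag
The miR-18 family has a single guide here.
hsa-miR-18a-5p (chr13:91350756-91350778): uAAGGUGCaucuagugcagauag
The miR-19 family has a pair of guides.
hsa-miR-19a-3p (chr13:91350939-91350961): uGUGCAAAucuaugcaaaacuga
hsa-miR-19b-3p (chr13:91351245-91351267): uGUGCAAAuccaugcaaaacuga
The miR-92 family has a single guide at this locus.
hsa-miR-92a-3p (chr13:91351361-91351382): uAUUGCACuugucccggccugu
The remaining 4 members are passengers, each with a seed of its own among the members.
hsa-miR-17-3p (chr13:91350655-91350676): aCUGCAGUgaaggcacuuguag
hsa-miR-18a-3p (chr13:91350797-91350819): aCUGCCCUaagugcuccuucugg
hsa-miR-19b-1-5p (chr13:91351207-91351229): aGUUUUGCagguuugcauccagc
hsa-miR-92a-1-5p (chr13:91351324-91351346): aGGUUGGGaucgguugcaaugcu
Counted from 1 at the 5′ end, miR-17-5p and miR-20a-5p differ by C1U and C12U, and miR-19a-3p and miR-19b-3p by U11C alone. The 6 hairpins span 787 bp of GRCh38, chr13:91350605-91351391, inside the host gene MIR17HG (chr13:91347686-91397592). Of its 16 annotated transcripts, 3 hold the whole cluster in an exon, 8 hold it in an intron and 5 do not cover all of it.

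Each library held 14544516 to 19834361 miRNA reads, of which 14003601 to 18377415 were untransfected. The epithelial markers fixed for the line, miR-200c-3p, miR-141-3p, miR-192-5p, miR-194-5p and miR-215-5p, all had reads, 16214 to 22333 reads per 1000000 untransfected reads (RPM) in sum. Markers of blood, liver, neurons, muscle and stroma summed to 308 to 366 RPM, with reads for 6 of 9 and no listed count for miR-124-3p, miR-133a-3p and miR-206, which mark neurons and muscle. Single markers of the lists overlapped in level. The epithelial miR-194-5p (25.6 to 32.9 RPM) and miR-215-5p (18.5 to 33.4 RPM) were below the stromal miR-143-3p (95.7 to 219 RPM) and miR-145-5p (86.7 to 257 RPM). In the comparisons below, a miRNA was called when its level differed by more than 2-fold, and the 478 untransfected miRNAs that averaged 50 reads or more over the libraries gave the background. After scaling to untransfected reads the median of these 478 was 0.921 of the empty vector level in the wild type library, 0.790 in mutant 1 and 1.04 in mutant 2, and 0.831 in mutant 1 against wild type, so that values are also given relative to this median where it matters.

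Scaled to untransfected reads, the total level of the cluster differed by less than 2-fold between the 4 libraries. Reads of its members numbered 237880 with the empty vector, 212919 in wild type, 292243 in mutant 1 and 285540 in mutant 2. As a share of untransfected reads this was 1.70% (1.69 to 1.71%), 1.44% (1.43 to 1.44%), 1.59% (1.58 to 1.60%) and 1.81% (1.80 to 1.81%) in the same order. The wild type library was lowest and mutant 2 highest, and none of these intervals overlap. Against the empty vector, the summed cluster was at 0.847 (0.842 to 0.852) in wild type, 0.936 (0.931 to 0.941) in mutant 1 and 1.06 (1.06 to 1.07) in mutant 2, and mutant 1 was at 1.11 (1.10 to 1.11) of wild type. Relative to the median untransfected miRNA the same folds were 0.920 for wild type and 1.19 for mutant 1 against the empty vector, and 1.33 for mutant 1 against wild type, so the direction of the mutant 1 difference from the empty vector turns with the scaling. None of these folds was past 2. With miR-16-5p, the divisor of the study, the folds against the empty vector were 0.477, 0.565 and 0.433 for wild type, mutant 1 and mutant 2, so that the mutant 2 direction turned as well and 2 of the 3 were past 2-fold lower, and the median untransfected miRNA was then at 0.519, 0.477 and 0.424. The 3 comparisons against the empty vector share that library.

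Most reads of the cluster came from 3 guides. Together miR-17-5p, miR-20a-5p and miR-92a-3p made up 93.4% of the members' reads with the empty vector (93.3 to 93.5%), 90.4% in wild type, 89.3% in mutant 1 and 90.7% in mutant 2. They ranked between 26 and 40 among untransfected miRNAs in every library.

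Levels are in RPM, always in the order empty vector, wild type, mutant 1, mutant 2. miR-92a-3p, which has a second locus and no short reads at its annotated start (both described further on), stood at 6227, 5590, 4993 and 6220. miR-20a-5p stood at 5806, 4306, 5936 and 6199. miR-17-5p, which carries the same seed, stood at 3833, 3106, 3269 and 3959. Of the 2 single-locus guides miR-20a-5p was above miR-17-5p in every library. The place of miR-92a-3p in this order is a matter of the counts as deposited: it was highest with the empty vector and in wild type, below miR-20a-5p in mutant 1, and within counting error of it in mutant 2 (6181 to 6259 beside 6161 to 6238). miR-20a-5p had 1.51, 1.39, 1.82 and 1.57 reads per read of miR-17-5p, highest in mutant 1.

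A step below came miR-18a-5p and miR-19a-3p. miR-18a-5p stood at 444 (433 to 455), 730 (716 to 744), 820 (807 to 833) and 849 (835 to 864). The empty vector library was lowest, apart from the 3 libraries with insert plasmids. miR-19a-3p, a guide of the miR-19 family, stood at 504 (492 to 516), 484 (473 to 495), 738 (726 to 751) and 652 (639 to 664). Here mutant 1 was highest and the empty vector and wild type libraries overlapped in their intervals. Of this pair, miR-19a-3p was higher with the empty vector and miR-18a-5p in the other 3 libraries.

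The passengers miR-17-3p, miR-18a-3p and miR-92a-1-5p were lower still. miR-17-3p stood at 112, 98.0, 74.9 and 99.1, lowest in mutant 1. miR-18a-3p ranged from 29.1 with the empty vector to 38.1 in mutant 2, and miR-92a-1-5p from 17.8 in mutant 1 to 23.6 in mutant 2. The rarest members were miR-19b-3p, with 107, 130, 280 and 163 reads, and miR-19b-1-5p, with 59, 94, 100 and 96 reads. Although miR-19b-3p is usually taken as a guide with the seed of miR-19a-3p, its count was 1 in 48.5 to 65.9 of that of miR-19a-3p, and this count may be too low, as set out with its loci.

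No member was past 2-fold in any of the 4 comparisons. The background shares past 2-fold were 2.3% for wild type against empty vector, 10.5% for mutant 1 against empty vector, 1.88% for mutant 2 against empty vector and 3.56% for mutant 1 against wild type. The members' median fold was 0.969, 1.07, 1.24 and 0.987 in that order, with 4, 6, 8 and 5 of the 10 above 1. Relative to the median untransfected miRNA, 6, 9, 7 and 9 of the 10 were above it. In mutant 1 against the empty vector, 46 of the 50 background calls were lower and 4 higher, while after centring on the median 9 were lower and 12 higher. In mutant 1 against wild type the split went from 16 lower and 1 higher to 7 lower and 8 higher.

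Apart from miR-19b-3p in mutant 1, the member with the highest fold against the empty vector was miR-18a-5p in each library. It was 1.65-fold higher in wild type (1.59 to 1.70), 1.85-fold in mutant 1 (1.79 to 1.90) and 1.91-fold in mutant 2 (1.86 to 1.97), which placed it at ranks 12, 7 and 12 from the top of the 478. Relative to the median miRNA these folds were 1.79, 2.34 and 1.84, so that only the mutant 1 value was past 2. Without this centring, miR-18a-5p was past 2 in mutant 1, at 2.08, when reads short of the annotated 3p end were left out. Since the 3 comparisons share the empty vector library, which was the low one, they are not separate observations, and mutant 1 against wild type gave 1.12 (1.10 to 1.15). When scaled to miR-16-5p, whose plasmid was in 3 of the 4 mixtures, the wild type and mutant 2 folds were below 1, at 0.927 and 0.779. Its passenger miR-18a-3p was 1.27-fold (1.11 to 1.44), 1.12-fold (0.985 to 1.27) and 1.31-fold (1.15 to 1.48) of the empty vector level. With miR-16-5p as divisor the folds of miR-18a-3p were 0.713, 0.674 and 0.532, all below 1. Per 1000 reads of miR-17-5p, which removes any library divisor, miR-18a-5p had 116 reads with the empty vector and 235, 251 and 215 in the other libraries. Of the stromal markers, miR-145-5p was likewise lowest with the empty vector (86.7, 149, 257 and 203 RPM), while miR-143-3p from the same stromal list was highest there (219, 154, 95.7 and 157), and their part in the result was not tested.

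Scaled to untransfected reads, mutant 1 had the highest levels of the miR-19 guides, and against wild type also a higher level of miR-20a-5p. miR-19a-3p was 1.47-fold of the empty vector level (1.42 to 1.51) and 1.53-fold of wild type (1.48 to 1.57), at ranks 18 and 9 of 478. With miR-16-5p as divisor these folds were 0.885 and 1.64, so the direction against the empty vector turned. miR-19b-3p was 1.99-fold of the empty vector level (1.60 to 2.49) and 1.73-fold of wild type (1.41 to 2.14). miR-20a-5p was at 1.02 of the empty vector level (1.01 to 1.03) and at 1.38 of wild type (1.37 to 1.39), the library in which it was lowest. These are the members with the highest ranks in mutant 1 against wild type, rank 3 for miR-19b-3p, 9 for miR-19a-3p and 17 for miR-20a-5p. Relative to the median miRNA, miR-19b-3p was past 2 in both comparisons, at 2.53 and 2.09. By contrast miR-17-3p had its lowest value here, at 0.669 of the empty vector level (0.622 to 0.719). Counting only reads that ended at or beyond the annotated 3p end, which left out the short reads that were fewer in mutant 1, it was at 0.884.

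In wild type against the empty vector the most abundant guides were lower. miR-20a-5p was at 0.742 (0.734 to 0.749), miR-17-5p at 0.810 (0.800 to 0.820) and miR-92a-3p at 0.898 (0.889 to 0.906), beside a background median of 0.921. All 3 stayed below 1 under each of the 5 scalings of whole libraries, but per miR-17-5p read miR-92a-3p was at 1.11 and miR-20a-5p at 0.915. In mutant 2 against the empty vector the same guides were at 1.07, 1.03 and 0.999, all close to the background median of 1.04.

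The arms of a hairpin come from the same cut precursor, so their ratio in 1 library needs no scaling. At mir-19b-1 and mir-92a-1 the guide count can also hold reads of a chromosome X precursor, so these shares are not of a single precursor. The guide took most reads at all 6 hairpins, and the passenger under 10% of them at 5. Passenger reads were 2.24 to 3.06% of both arms at mir-17, 3.82 to 6.16% at mir-18a, 0.318 to 0.378% at mir-92a-1, and, counting the other arms miR-19a-5p and miR-20a-3p, 1.14 to 2.53% at mir-19a and 0.0946 to 0.182% at mir-20a. In the counts as deposited mir-20a was thus the most one-sided hairpin, with 77 to 176 passenger reads beside 63734 to 109085 guide reads. The place of mir-92a-1 in this order depends on its guide count, whose limits are set out with its loci. miR-17 and miR-20a share their guide seed, yet the passenger share of mir-17 was above that of mir-20a in every library.

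Within a hairpin, except at mir-92a-1, the passenger share varied between libraries by more than counting error. No background over other hairpins was taken for arm shares, so whether this is particular to the cluster was not tested. At mir-18a it was 6.16% with the empty vector (5.61 to 6.77%), 4.81% in wild type (4.43 to 5.22%), 3.82% in mutant 1 (3.53 to 4.13%) and 4.29% in mutant 2 (3.97 to 4.64%). At mir-19a it was 2.30%, 2.53%, 1.14% and 1.72%, lowest in mutant 1. Guide reads are part of the total here, so a share and the level of its guide are not separate measures. At mir-20a the empty vector library was lowest, with 0.0946% (0.0757 to 0.118%) against 0.161 to 0.182% in the others. At mir-92a-1 all 4 intervals overlapped, from 0.318% (0.283 to 0.357%) with the empty vector to 0.378% (0.341 to 0.418%) in mutant 2. At mir-19b-1 the share was 35.5%, 42.0%, 26.3% and 37.1%, far above the other hairpins, on only 107 to 280 guide reads.

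The 5p end of a read fixes the seed. It is set by DROSHA for a 5p arm and by DICER for a 3p arm. In all, 98.2 to 98.5% of the members' reads began at the annotated start. At their most frequent start stood 99.8 to 99.9% of reads for miR-18a-5p, 99.6% for miR-20a-5p, 98.1 to 98.4% for miR-17-5p and 97.3 to 97.9% for miR-92a-3p. A further 1.98 to 2.56% of miR-92a-3p reads (1816 to 2233) started 1 nt downstream, with the seed UUGCACU. No member moved by more than 5 percentage points in its main start between libraries, while 16.4% of untransfected miRNAs did in wild type against empty vector, 17% in mutant 1 against empty vector, 16.1% in mutant 2 against empty vector and 15.2% in mutant 1 against wild type. The largest difference was exactly 5 points, for miR-19b-1-5p in mutant 1 against wild type on 100 and 94 reads. The background shares are over untransfected miRNAs with at least 50 reads in both libraries. They changed clearly under a stricter read cutoff in all 4 comparisons. Most members had far more reads than this cutoff, and no background matched to their read numbers was taken. Whether their starts were unusually fixed was therefore not tested.

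Among the 10 members, reads with another seed took their largest share in miR-17-3p. Of miR-17-3p reads, 15.1%, 17.9%, 19.2% and 16.8% started 1 nt downstream, which gives the seed UGCAGUG in place of CUGCAGU. Of miR-19a-3p reads, 4.45%, 4.10%, 3.90% and 4.04% started 1 nt upstream, with the seed UGUGCAA. Both miRNAs are 3p arms, and the shifted forms are shown with the new seed in capitals because it is these bases that would pair with targets.
hsa-miR-17-3p, start 1 nt downstream: cUGCAGUGaaggcacuuguag
hsa-miR-19a-3p, start 1 nt upstream: uUGUGCAAaucuaugcaaaacuga
Neither shifted seed occurred at the annotated start of any human mature miRNA in the RefSeq entries used. The start of miR-17-5p 1 nt upstream, 1.39 to 1.73% of its reads, has the seed of miR-520g-3p and miR-520h, CAAAGUG, and the start of miR-18a-3p 1 nt downstream, 1.47 to 3.18% of its reads (6 to 19), has that of miR-3157-3p, UGCCCUA. The other arm miR-20a-3p, with few reads, started 1 nt downstream in 18.2% of 77 reads with the empty vector, 37.1% of 116 in wild type, 26.1% of 176 in mutant 1 and 43.8% of 169 in mutant 2.

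The 3p ends were less uniform than the starts and differed by member in a way that held in all libraries. Mismatches were allowed at the 3p end, and where reads with added, untemplated bases were placed is not given in the sources used here, so a read beyond the annotated end may carry such a base. miR-17-5p and miR-20a-5p ended at the annotated base in 75.4 to 77.9% and 77.6 to 78.1% of reads. Those of miR-17-5p that did not were more often longer (13 to 16.1%) than shorter (8.05 to 9.56%), and for miR-20a-5p shorter (11.9 to 12.6%) slightly more often than longer (9.27 to 10.6%). miR-19a-3p was mostly 1 nt short, in 60.1%, 66.0%, 56.8% and 64.1% of reads, with 36.1%, 29.6%, 39.4% and 32.0% at the annotated end. The miR-19 guide that RefSeq lists at 23 nt was therefore mainly a 22 nt RNA in these cells.

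miR-18a-5p ended at the annotated base in 54.1%, 51.9%, 59.8% and 54.1% of reads, and almost all others were 1 to 3 nt short. miR-17-3p had the broadest ends, with 41.5%, 47.1%, 57.1% and 43.1% of reads 1 nt beyond the annotated end and 40.7%, 33.9%, 21.7% and 35.2% short of it. Its mean length went from 21.6 nt with the empty vector to 22.1 nt in mutant 1. The passengers made on the 5p side, miR-19b-1-5p and miR-92a-1-5p, were the most precise, with 84.7 to 91.7% and 90.2 to 93.3% of reads at the annotated end.

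The main 3p end moved by more than 5 points for 2 of 10 members in wild type against empty vector, 3 in mutant 1 against empty vector, 1 in mutant 2 against empty vector and 4 in mutant 1 against wild type. The shares of untransfected miRNAs that did so were 28.9%, 38.9%, 26.8% and 36%, and the members' counts were near or below these. In some comparisons these shares also changed clearly under a stricter read cutoff. In wild type the 2 were miR-17-3p and miR-19a-3p, in mutant 1 against the empty vector miR-17-3p, miR-18a-5p and miR-18a-3p, and in mutant 1 against wild type these 3 and miR-19a-3p. For miR-19b-1-5p in mutant 2 (6.92 points, -3.79 to 17.6) and miR-18a-3p in mutant 1 against wild type (5.44 points, -0.35 to 11.2) the interval of the difference includes 0. The largest shift was that of miR-17-3p, whose reads 1 nt beyond the end were 15.6 points more frequent in mutant 1 than with the empty vector (12 to 19.2) and 10.02 points more than in wild type (6.35 to 13.7). Next came miR-19a-3p, whose reads 1 nt short differed by -9.16 points (-10.5 to -7.78) between mutant 1 and wild type. miR-18a-5p reads at the annotated end were 7.91 points more frequent there (6.69 to 9.14).

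The mutant 1 library held fewer short reads in general. Reads short of the annotated 3p end were less frequent in mutant 1 than with the empty vector for 313 of 447 untransfected miRNAs and more frequent for 106, with a median difference of -1.43 points. Among the 8 members with a single locus, 7 were lower, with a median of -2.76 points and a range from -19.1 to 0.207 points. Against wild type 7 of 8 were lower as well, with a median of -6.10 points beside -1.39 points in 453 untransfected miRNAs, of which 326 were lower. In wild type against the empty vector 2 of 8 members were lower, beside 223 of 456 untransfected miRNAs (48.9%), and in mutant 2 against the empty vector 5 of 8, beside 275 of 466 (59.0%).

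A paralogous cluster, miR-106a-363 on chromosome X, carries the same families, and base differences between the arms show how much each locus contributed. miR-17-5p and miR-106a-5p differ by C1A alone, and 53677 reads of miR-17-5p stood beside 356 of miR-106a-5p with the empty vector, a share of 99.3% (99.3 to 99.4%), with 99.3 to 99.4% in the other libraries. miR-18a-5p and miR-18b-5p differ by A20U alone, and 6215 to 15073 reads of miR-18a-5p stood beside 7 to 15 of miR-18b-5p. miR-20b-5p, the paralog of miR-20a-5p, had 0 to 2 reads per library, and its 0 reads in mutant 1 and mutant 2 allow a share of up to 0.00275% and 0.00306%. At these 3 arm pairs, over 90% of the reads were those of the chromosome 13 cluster in every library.
hsa-miR-106a-5p (chrX:134170244-134170266): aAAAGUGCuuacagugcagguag
hsa-miR-18b-5p (chrX:134170084-134170106): uAAGGUGCaucuagugcaguuag
These are shown to be read against miR-17-5p and miR-18a-5p above, since the single base sets the locus to which a read is assigned. For the hairpins that make miR-19b-3p and miR-92a-3p on chromosome X, the opposite arms miR-19b-2-5p and miR-92a-2-5p had no listed count. Only forms with at least 1 read are listed, so whether these arms were counted at 0 or not counted is not known, and no chromosome X share is given for them.

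The mature sequences of miR-19b-3p and miR-92a-3p are the same at both loci, and the first base that differs after them lies 1 nt beyond the 3p end. The ends of both are shown with the flank, with the flank bases that differ between the loci in capitals.
hsa-miR-19b-3p, MIR19B1 (chr13:91351245-91351267): ugugcaaauccaugcaaaacugaCugugG
hsa-miR-19b-3p, MIR19B2 (chrX:134169683-134169705): ugugcaaauccaugcaaaacugaUugugA
hsa-miR-92a-3p, MIR92A1 (chr13:91351361-91351382): uauugcacuugucccggccuguUgaGUU
hsa-miR-92a-3p, MIR92A2 (chrX:134169544-134169565): uauugcacuugucccggccuguGgaAGA
Among reads of miR-92a-3p that begin at the annotated start or further in, 0 ended short of the annotated 3p end in any library, and the same held for miR-19b-3p. At the annotated start, 0 of 351298 reads of miR-92a-3p and 0 of 675 of miR-19b-3p over the 4 libraries were short, against 7.76 to 62.4% for the 8 members with a single locus. Nearly equal numbers of miR-19b-3p reads ended at the annotated base (52, 63, 140 and 81) and 1 nt beyond (44, 56, 136 and 71), and miR-92a-3p had 44.4 to 46.2% at the annotated base.

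This pattern was frequent among untransfected miRNAs with several loci, a set that can include miR-19b-3p and miR-92a-3p themselves. Of 17 untransfected miRNAs with 2 or more loci in the RefSeq entries, 13 had 0 reads short of the annotated end and the median was 0%. Of 408 with 1 locus, 16 had none and the median was 14.9%. The authors kept unambiguous reads, and whether reads of these miRNAs were lost in that way was not tested. If such reads were lost, the counts of miR-19b-3p and miR-92a-3p would be too low and the passenger shares at mir-19b-1 and mir-92a-1 too high. These guide counts also pool both loci while each passenger comes from 1 locus, which would make the shares too low. Counts and shares are given as counted, and neither direction was tested. Reads long enough to reach a position at which the loci differ were up to 51.5% of miR-19b-3p and 53.8 to 55.6% of miR-92a-3p.

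Another cluster, miR-106b-25 on chromosome 7, carries guides with the seeds of miR-17-5p and miR-92a-3p.
hsa-miR-93-5p (chr7:100093815-100093837): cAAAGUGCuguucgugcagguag
hsa-miR-106b-5p (chr7:100094043-100094063): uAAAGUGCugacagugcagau
hsa-miR-25-3p (chr7:100093571-100093592): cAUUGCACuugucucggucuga
Its 3 guides took 371361, 354843, 337936 and 407690 reads, more than the 10 members of the miR-17/92 cluster in each library. In mutant 1 against the empty vector miR-25-3p was at 0.640 (0.637 to 0.644), miR-106b-5p at 0.671 and miR-93-5p at 0.819, while the summed miR-17/92 cluster was at 0.936. In wild type against the empty vector they were at 0.913, 0.987 and 0.875 beside 0.847 for the cluster, and in mutant 2 at 0.924, 1.03 and 1.08 beside 1.06.

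The miRNAs whose levels over the 4 libraries lay nearest to those of the summed cluster were found by the Euclidean distance between centred log2 levels, over 4 libraries and 477 untransfected miRNAs with a median distance of 0.45. They were let-7f-5p (0.03), miR-548f-3p (0.05), miR-559 (0.07), miR-361-3p (0.08) and miR-651-5p (0.08). Each was lowest in wild type and highest in mutant 2, as the cluster was. let-7f-5p, for instance, stood at 1899, 1568, 1730 and 1989 RPM. With 4 points per profile this is a description of these libraries.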

How the data were processed

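Total RNA of transfected HCT116 cells was made into small RNA libraries with the TruSeq kit. The authors clipped adapters (cutadapt), filtered reads on length (18 to 26 nt) and quality (FASTX toolkit), aligned to hg38 with Bowtie2 and assigned unambiguous reads with mismatches only at the 3p end to the loci of miRBase v22. The deposited values are raw read counts per isoform, a miRNA with offsets of its 5p and 3p ends, with blank cells taken as 0. The 10 members held 175 of 12689 isoforms. Offsets were read as positive into the miRNA at both ends: with this sign all 10981 isoforms of known length were 18 to 26 nt long, while with the opposite sign at the 3p end 15.5% were not. Isoforms were summed per miRNA and divided by the untransfected miRNA reads of the library, since a pri-mir-16-1 plasmid in 3 of the 4 mixtures bears on miR-16-5p, the divisor of the study. Members are included in that divisor.

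Levels have exact Poisson, shares Wilson, and folds log-normal intervals, and a count of 0 was read as allowing 3 reads. Reads carry no molecular identifiers, so these cover counting error only. Depth, 14544516 to 19834361 reads per library, makes them narrow except for miR-19b-3p and miR-19b-1-5p. Nothing was tested for significance. A level past 2-fold, or a share past 5 percentage points, was called and read beside the same over untransfected miRNAs (a mean of at least 50 reads for levels, and at least 50 reads in both libraries for shares). Named were all members, their opposite arms, the paralogous clusters miR-106a-363 and miR-106b-25, miR-16-5p, the 5 miRNAs with the nearest profile, and end isoforms with at least 5% of a member's reads. Members, lists and rules were chosen with earlier results of these data known. Alternatives were other divisors (all miRNA reads, miR-16-5p, TMM of edgeR 4.0.16, median of ratios of DESeq2 1.42.0, R 4.3.3), other isoform and read filters and a pseudocount. Positions are from GENCODE release 44 and RefSeq. Python 3.11.15, pandas 2.3.3, numpy 2.4.6, scipy 1.17.1 and matplotlib 3.10.9 were used, and the calling rule was tested on simulated counts.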

Additional observations from a re-analysis of the deposited data

How the results depend on the processing

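No paired analysis was possible because each condition has 1 library, and no library could be left out. The summed cluster moved beyond its counting interval with every other divisor. For wild type against empty vector it was 0.750 with all miRNA reads, 0.477 with miR-16-5p, 0.912 with TMM, 0.908 with the median of ratios and 0.817 without the 2-locus members. For mutant 1 against empty vector the same settings gave 0.901, 0.565, 1.27, 1.25 and 1.01, for mutant 2 against empty vector 1.02, 0.433, 1.04, 1.03 and 1.10, and for mutant 1 against wild type 1.2, 1.19, 1.39, 1.37 and 1.24. Counting only reads at the annotated start left all 4 folds within their intervals. The number of members past 2-fold, 0 as reported, became 3, 2 and 5, all lower, in wild type, mutant 1 and mutant 2 against empty vector with miR-16-5p, beside 210, 274 and 377 of the 478 untransfected miRNAs. With TMM or the median of ratios it became 2 in mutant 1 against empty vector (miR-18a-5p and miR-19b-3p) and 1 in mutant 1 against wild type (miR-19b-3p), all higher, beside 22 or 21 and 14 of the 478 under these scalings. It was 1 in mutant 1 against empty vector with annotated starts only (miR-19b-3p), beside 60 of 469. After the data were seen, scaling to miR-17-5p was added and gave 1 in wild type against empty vector (miR-18a-5p) and 2 in mutant 1 against empty vector (miR-18a-5p and miR-19b-3p), beside 14 and 25 of the 478. Recounting miR-19b-3p and miR-92a-3p from reads that reach a position at which their loci differ, some of which may carry an untemplated base there, gave 0 throughout, and leaving out reads short of the annotated 3p end gave 1 in mutant 1 against empty vector (miR-18a-5p), beside 65 of 471, and 0 in the others. The counts of hairpins, starts, 3p ends and paralog pairs past their limits did not change by more than 1.5 times under any alternative run. Single arm shares left their counting intervals in 34 cases and stayed within them in 14, with annotated starts or the most frequent isoform only. A stricter read cutoff changed the background share by more than 1.5 times for starts in all 4 comparisons and for 3p ends in 2. For levels in wild type against empty vector it went from 2.3% to 8.47% at a mean of 10 reads or more. At 200 or more it was 0.958%. The cause of the other changes was not tested. Depth limits miR-19b-3p and miR-19b-1-5p most, with 59 to 280 reads per library, and no value here covers the spread between transfections.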
